A study of Canis lupus familiaris with 6 samples.

Results

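The HOX genes were the rows whose symbol was HOX followed by a cluster letter from A to D and a paralogue number, and there were 35 of them among 30951 gene rows and 16036 symbols. They comprised 11 HOXA, 10 HOXB, 7 HOXC and 7 HOXD genes, each listed once. HOXC9, HOXC10, HOXD9 and HOXD13 matched no row and were not analysed here. The choice used symbols only and no measured value.

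HOX proteins are homeodomain transcription factors that tell cells where they lie along the body axis and along the limb. The genes sit in 4 clusters, and genes of low paralogue number are used towards the head while those of high number are used towards the tail and the tip of the limb. Adult mesenchymal and skin cells often keep the HOX pattern of the place they came from, and Polycomb and Trithorax complexes hold the clusters off or on.

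The study profiled RNA from CMM2 and CMM12, which the labels give as dog melanoma cell lines, to see how removal of podoplanin, a membrane glycoprotein encoded by PDPN, alters expression. Each line had 1 control library, labelled WT, and 2 libraries from podoplanin knockout (KO) lines numbered 1 and 2, which makes 6 libraries. The sources used here do not say whether a KO line is a single clone or which libraries came from separate cultures, so every p-value measures only the spread between these samples. Each line is 1 cell line, and its 3 libraries differ in genotype, so an SD over them holds the KO difference as well as the spread between cultures.

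Library totals ran from 9732925 to 11807824 counts. A count of 0 has an upper 95% limit of about 3 counts, which corresponded to 0.254 to 0.308 CPM (a counts-per-million value). Folds given as at least put 3 counts in place of 0 and leave out the counting error of the other count. Most HOX genes had few counts, and intervals given on ratios of counts cover counting error only. PDPN stood at 19.11 TPM (a transcripts-per-million value) in the CMM2 control and at 5.71 and 5.96 in its KO lines, and at 94.26, 16.04 and 10.80 in the same order in CMM12. All 4 libraries labelled podoplanin KO lay below the control of their own line, but transcript remained in each. SOX10, MLANA, TYR, DCT, KIT and S100B, which mark melanocytic cells, were between 0 and 0.21 TPM in all 6 libraries, so these defining markers were near 0, while MITF, the melanocyte master regulator, was at 10.7 to 21.7 TPM. TYRP1 was at 0 TPM in CMM2 and at 2.09 to 3.45 in CMM12, and PAX3 at 0 to 0.22 and 1.58 to 3.28, so these 2 separated the lines. PMEL was at 0.41 to 0.51 TPM in CMM2 and 0.46 to 1.82 in CMM12. The summed level of the 10 melanocytic markers, most of it MITF, was 14.8 to 19.7 TPM in CMM2 and 17.1 to 26.1 in CMM12.

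Of the summed markers of other cell types, the epithelial ones separated the lines, and the fibroblast, endothelial and leukocyte sums overlapped. The 8 fibroblast markers summed to 343 to 2779 TPM in CMM2 and 951 to 2299 in CMM12, and their directions were split. THY1, a surface glycoprotein, was at 0 in CMM2 and at 115 to 313 in CMM12. The log2 fold change of CMM12 over CMM2 was positive for 5 of the 8. It was negative for COL1A1 (-4.27), COL3A1 (-1.51) and PDGFRA (-1.06). The 4 listed epithelial markers were at 0 in CMM2 and summed to 1.45 to 15.1 TPM in CMM12, and the 5 endothelial markers summed to 1.03 to 2.42 over all libraries. Of the 6 leukocyte markers, PTPRC, CD3E, CD4 and CD8A were at 0 throughout and CSF1R was at 0.03 to 1.71 TPM, whereas the row named CD79A held 3150 to 4542 TPM. The part of these markers in the HOX results was not tested. In bulk RNA, fewer cells with a transcript and less of it per cell cannot be told apart.

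Both lines carried a partial HOX pattern, with some HOXA genes, HOXC4, HOXC6 and HOXD8 on in each, and the HOXB cluster almost silent in CMM12. A gene counted as expressed in a line when its TPM was at least 1 in all 3 libraries. By that rule 9 of the 35 HOX genes were expressed in CMM2, or 25.7%, against 57.1% of all symbols. In CMM12 it was 7 of the 35, or 20%, against 59.8% of all symbols. HOXA3, HOXA11, HOXC4, HOXC6 and HOXD8 were expressed in both lines. HOXA9, HOXA13 and HOXB6 were among those that met the rule in CMM2 but not in CMM12, and HOXA4 and HOXA5 met it in CMM12 but not in CMM2. HOXA9 and HOXB6 were below 1 TPM in every CMM12 library, whereas HOXA4, HOXA5 and HOXA13 reached 1 TPM in at least 1 library of each line.

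**Figure D1:**
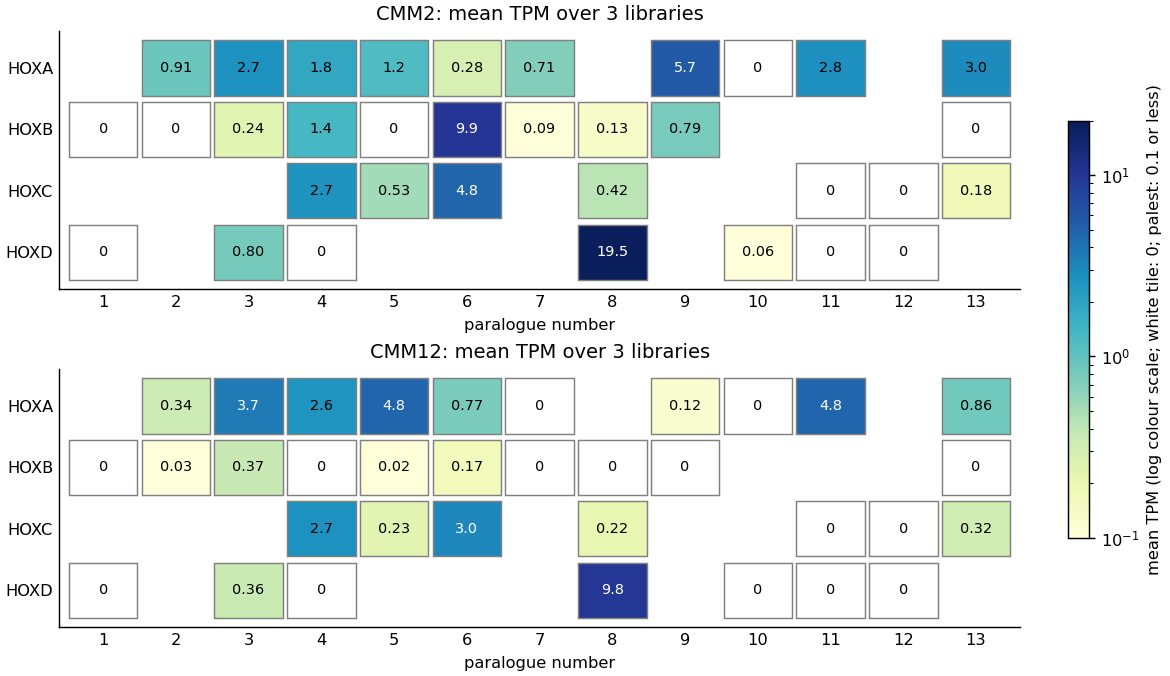
Mean TPM over the 3 libraries of CMM2 (upper panel) and of CMM12 (lower panel) for 34 of the 35 HOX genes, by cluster (rows) and paralogue number (columns), on a log colour scale with white for 0. The HOXB row holds a dark tile at paralogue 6 in CMM2 and only pale or white tiles in CMM12, while the HOXD row is led by HOXD8 in both lines (19.5 and 9.84 TPM).

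Many members were silent. HOXA10, HOXB1, HOXB13, HOXC11, HOXC12, HOXD1, HOXD4, HOXD11 and HOXD12 had 0 counts in all 6 libraries, and HOXB2, HOXB5, HOXB7, HOXB8, HOXC8 and HOXD10 had 1 to 9 counts over all of them together. The row for HOXA10 was only 285 bases long, the shortest of the HOX rows, so a 0 there speaks for a small part of a gene. In all, 19 HOX genes stayed under 1 TPM in every library of both lines. Of the posterior end of the clusters, HOXA11 and HOXA13 were read in both lines. No listed HOXB, HOXC or HOXD gene with a number above 9 reached 1 TPM in any library. HOXC10 and HOXD13, which matched no row, could not be read, so the posterior end of those clusters was seen only in part.

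The TPM summed over the HOX genes was higher in CMM2, and a few genes held much of that gap. Summed over the 35 genes it was 59.75, 63.03 and 64.40 TPM in the CMM2 control, KO 1 and KO 2, and 37.15, 38.82 and 34.87 in the same order in CMM12. The lines did not overlap. HOXD8 alone gave 27.7% to 37.2% of the sum in CMM2 and 19.8% to 36.0% in CMM12, and without it the sums were 42.9 ± 2.56 TPM (SD, n = 3) and 27.1 ± 3.72 (SD, n = 3). That remainder still holds HOXB6 and HOXA9, at means of 9.95 and 5.73 TPM in CMM2 against 0.17 and 0.12 in CMM12. The sums therefore do not show a higher level across the family.

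By cluster, the gap between the lines lay in HOXB and HOXD. The HOXB genes summed to 8.87 to 14.4 TPM in the CMM2 libraries and to 0.05 to 0.92 in those of CMM12. The HOXD genes summed to 20.3 ± 4.01 TPM (SD, n = 3) in CMM2 and 10.2 ± 2.95 (SD, n = 3) in CMM12, nearly all of it HOXD8. The HOXA sums were 20.9 ± 2.85 and 19.6 ± 2.85 TPM and the HOXC sums 8.64 ± 3.71 and 6.56 ± 2.12 TPM (SD, n = 3 each), so that in both clusters the libraries of the lines overlapped.

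By paralogue number, the anterior genes 1 to 3 summed to 6.40 ± 0.494 TPM in CMM2 and 6.46 ± 0.881 in CMM12 (SD, n = 3 each), with overlapping libraries. Genes 4 to 8 summed to 43.5 ± 4.23 and 24.4 ± 2.92 TPM, and genes 9 to 13 to 12.5 ± 1.37 and 6.07 ± 0.895 TPM (SD, n = 3 each). For both of these groups every CMM2 library lay above every CMM12 library. Much of each gap rested on single genes. Genes 4 to 8 include HOXD8 (means of 19.5 TPM in CMM2 and 9.84 in CMM12) and HOXB6 (9.95 and 0.17). Genes 9 to 13 include HOXA9 (5.73 and 0.12). A trend along the clusters was not tested.

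In the order of levels, HOXD8 led both lines, and its lowest library stood above the highest library of any other HOX gene of the same line. In CMM2 it was followed by HOXB6 at 9.95 ± 2.52 TPM, HOXA9 at 5.73 ± 1.85 and HOXC6 at 4.85 ± 2.79 (SD, n = 3 each), and the libraries of these 3 overlapped from each to the next. In CMM12 the next were HOXA11 at 4.77 ± 1.57 TPM, HOXA5 at 4.75 ± 1.51 and HOXA3 at 3.70 ± 0.564 (SD, n = 3 each), which overlapped with each other likewise. HOXA9 and HOXB6, among the leading genes of CMM2, had means of 0.12 and 0.17 TPM in CMM12.

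To ask which HOX genes differed between the lines, counts of all genes were fitted with line and genotype as terms, by edgeR's quasi-likelihood test with Benjamini-Hochberg adjustment over the 12270 genes that passed a filter on low counts. The SE given with an edgeR log2 fold change was derived as the absolute change over the square root of the test's F statistic. It is approximate, and where a line had counts near 0 it can be narrower than the counting error. Of the 35 HOX genes 16 passed that filter and 19 did not. Among the 16, 7 had an adjusted p under 0.05, and these were 6 lower in CMM12 (HOXA9, HOXA13, HOXB4, HOXB6, HOXB9 and HOXD8) and 1 higher (HOXA5). Over all genes tested 25.8% were called, 14.6% higher and 11.2% lower. The median log2 fold change of CMM12 over CMM2 was -0.94 for the 16 HOX genes and 0.04 for all genes tested. HOXA2, HOXA9, HOXB4, HOXB6 and HOXB9 had under 10 counts in every CMM12 library and HOXB3 under 10 in every CMM2 library, so they passed the filter through 1 line and the count of 7 and the median are no support for a difference of the HOX genes as a group.

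**Figure D2:**
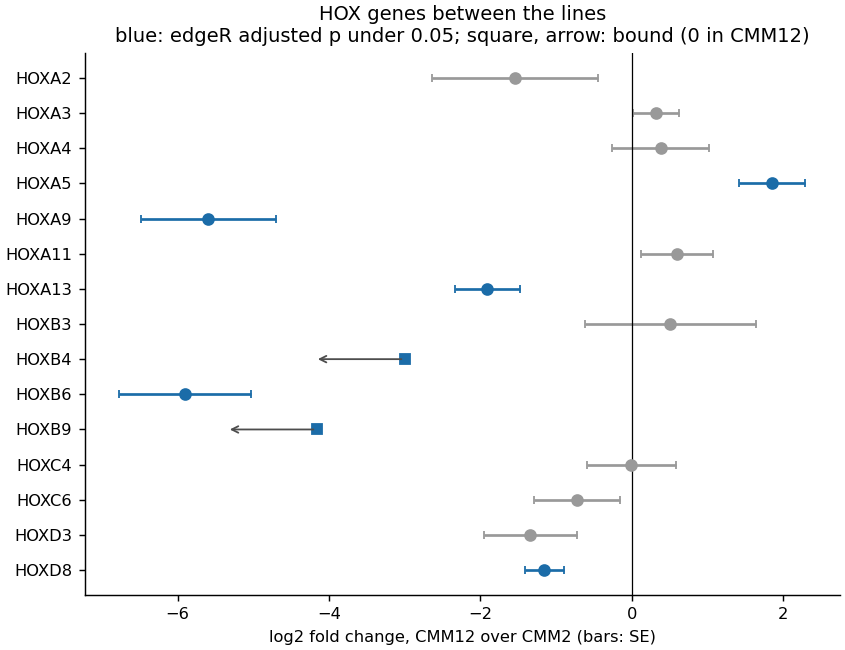
The log2 fold change of CMM12 over CMM2 for 15 of the 16 HOX genes tested, with bars for the SE, in blue where edgeR's adjusted p was under 0.05; squares with arrows give the bound for HOXB4 and HOXB9, which had 0 counts in CMM12. HOXA5 is the only blue point to the right of 0, and HOXA9 and HOXB6 lie farthest to the left among those with an SE. The SE is the absolute change over the square root of the test's F statistic, and is approximate.

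HOXB6, a gene of the middle of its cluster used in trunk and limb mesoderm, was the clearest difference. Its TPM was 11.91, 7.10 and 10.83 in the CMM2 control, KO 1 and KO 2, and 0.50, 0 and 0 in the same order in CMM12. No CMM12 library came near the range of CMM2, and the 2 counts of the whole CMM12 line came from the control. The pooled ratio of 125 to 2 counts was 59.8-fold (95% counting interval 16.2 to 499). The log2 fold change was -5.90 (SE 0.87, adjusted p = 0.00423, edgeR).

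HOXB9 and HOXB4 had no count in CMM12. HOXB9, a gene of the thoracic region, had 23, 2 and 31 counts in the CMM2 control, KO 1 and KO 2, or 0.98, 0.08 and 1.31 TPM. HOXB4, known for its part in blood stem cells, had 4, 9 and 12 counts in the same libraries, or 0.73, 1.35 and 1.98 TPM. Both were therefore low in CMM2 as well, and HOXB9 was nearly absent from CMM2 KO 1. Against 3 counts over the CMM12 line, HOXB9 was at least 17.9-fold and HOXB4 at least 7.98-fold higher in CMM2 (edgeR, adjusted p = 0.0455 and 0.0439).

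The rest of the HOXB cluster was low in both lines. HOXB3 was at 0.14 to 0.42 TPM in CMM2 and 0.05 to 0.85 in CMM12 and was not called. HOXB8 had 6 counts in CMM2 and 0 in CMM12, HOXB7 had 1 count in CMM2, and HOXB2 and HOXB5 had 1 count each in CMM12. Expression of HOXB in CMM2 was thus read at HOXB4, HOXB6 and HOXB9 and hardly at the genes between them.

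In the HOXA cluster, HOXA9 divided the lines. HOXA9, a posterior gene known for its role in blood progenitors and leukaemia, was at 7.66, 5.56 and 3.98 TPM in the CMM2 control, KO 1 and KO 2 and at 0.36, 0 and 0 in the same order in CMM12. The lines did not overlap, and again the only CMM12 counts, 2 in all, came from the control. The pooled ratio of 99 to 2 counts was 47.4-fold (95% counting interval 12.8 to 397), and the log2 fold change was -5.59 (SE 0.89, adjusted p = 0.00568, edgeR).

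HOXA13, which patterns the hand and foot and the lower gut, was at 2.36, 3.25 and 3.27 TPM in the CMM2 libraries and 1.14, 0.85 and 0.59 in those of CMM12. Its log2 fold change was -1.91 (SE 0.43, adjusted p = 0.0182, edgeR). HOXA11, the gene next to it in number and a gene of the forearm and shank, did not follow, with 3.03, 2.26 and 3.08 TPM in CMM2 and 2.96, 5.63 and 5.73 in CMM12 and a log2 fold change of 0.60 (SE 0.48, adjusted p = 0.39, edgeR). The CMM12 control overlapped with the CMM2 libraries for HOXA11, and the CMM12 KO libraries lay above them.

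HOXA5, used in the neck and in lung mesenchyme, was the only member called higher in CMM12. It was at 0.67, 1.53 and 1.47 TPM in the CMM2 control, KO 1 and KO 2 and at 3.07, 5.99 and 5.2 in CMM12. The lowest CMM12 library was above the highest of CMM2, and the log2 fold change was 1.85 (SE 0.44, adjusted p = 0.0213, edgeR). HOXA3, which shapes the third pharyngeal arch and the thymus, also had no overlap between the lines, with 2.36 to 2.89 TPM in CMM2 and 3.05 to 4.06 in CMM12, but its log2 fold change of 0.33 (SE 0.30) had an adjusted p of 0.46 in edgeR.

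Other HOXA genes did not separate the lines. HOXA4 was at 0.72 to 2.62 TPM in CMM2 and 2.19 to 3.0 in CMM12, and HOXA2, the selector gene of the second arch, at 0.57 to 1.36 and 0 to 0.80. HOXA6 and HOXA7 did not pass the count filter. HOXA7 had 0, 9 and 1 counts in the CMM2 libraries and none in CMM12, and HOXA6 had 1, 3 and 0 counts in CMM2 and 7, 3 and 0 in CMM12.

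HOXD8, a gene of the trunk and the most abundant HOX transcript of both lines, was at 16.96, 17.47 and 23.96 TPM in the CMM2 control, KO 1 and KO 2 and at 13.39, 7.70 and 8.42 in CMM12. The lines did not overlap, although the CMM12 control lay closer to CMM2 than the CMM12 KO libraries did. The log2 fold change was -1.15 (SE 0.26, adjusted p = 0.0184, edgeR). HOXD3, an anterior gene of the same cluster, was at a low level, with 0.69 to 0.98 TPM in CMM2 and 0.18 to 0.51 in CMM12. Its ranges did not overlap, but its log2 fold change of -1.34 (SE 0.61) had an adjusted p of 0.145 in edgeR.

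In the HOXC cluster no gene was called. HOXC6, a gene of the upper trunk, was at 2.69, 8.0 and 3.86 TPM in the CMM2 libraries and 2.52, 4.02 and 2.60 in CMM12, and HOXC4, its neighbour, was at 1.83 to 3.49 and 1.36 to 4.18 TPM. Both ranges overlapped, and the log2 fold change of HOXC4 was -0.00 (SE 0.59, adjusted p = 0.997, edgeR). HOXC5, which lies between them, had no overlap (0.50 to 0.58 against 0.13 to 0.44 TPM) at 13 counts against 5 and did not pass the filter. HOXC8 was at 0 to 0.64 TPM and HOXC13 at 0 to 0.59 over all libraries.

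**Figure D3:**
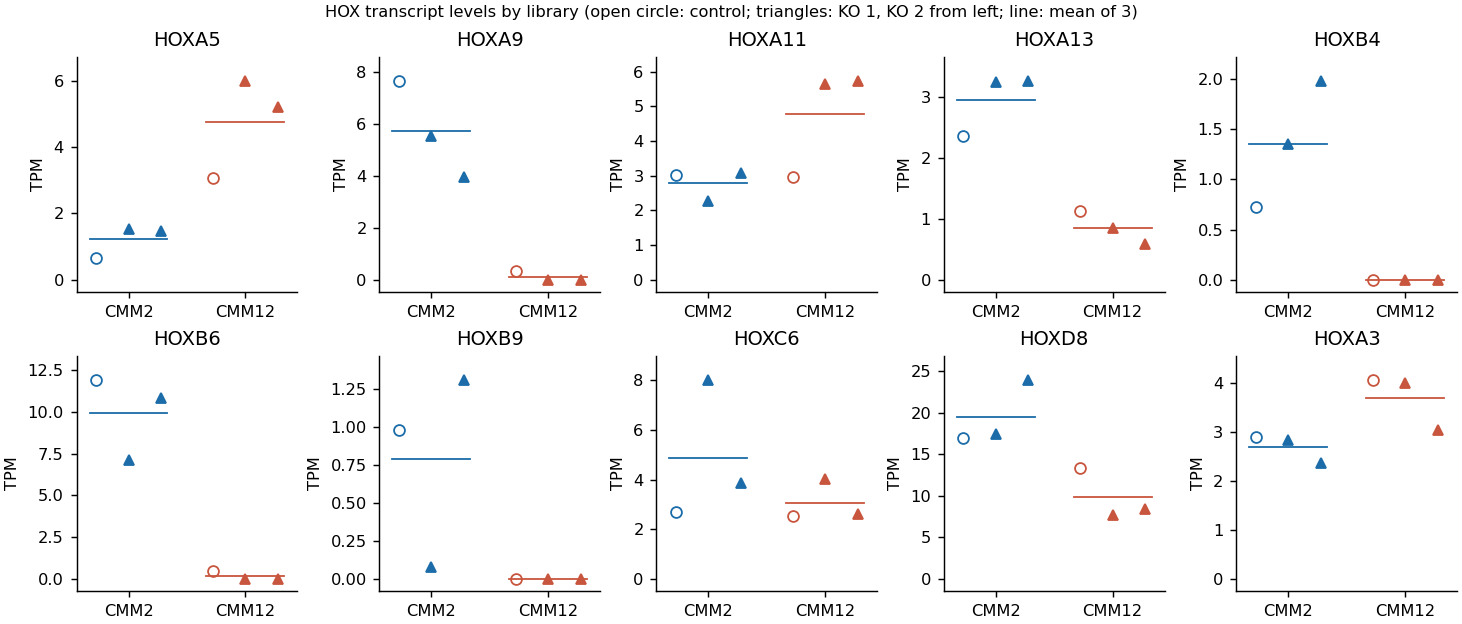
TPM in each library for the 7 HOX genes called between the lines, for HOXA11 and HOXC6, which reached at least 5 TPM in a library, and for HOXA3; open circles are controls, triangles are KO 1 and KO 2 from left to right, and lines are means of 3. HOXA9, HOXB4, HOXB6 and HOXB9 sit at or near 0 in CMM12, while HOXD8 and HOXA13 are lower there without being absent.

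Without any test, TPM of the lines did not overlap for 11 of the 26 HOX genes that had a count, 9 of them higher in CMM2 and 2 (HOXA3 and HOXA5) higher in CMM12. Among the 12787 symbols with a count 41.0% did not overlap, 13.7% higher in CMM2 and 27.3% higher in CMM12. The HOX genes were thus near the background in how many separated the lines, and listed more often higher in CMM2, a difference from the background that was not tested.

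The calls differed in how far they depended on single libraries. HOXA9 and HOXB6 were called in all 6 fits that left out 1 library. HOXA13 and HOXD8 were called in 3 of the 6, HOXA5 and HOXB9 in 1 of the 6, and HOXB4 in 0 of the 5 fits that could test it. The number of HOX genes called was 7 with all libraries, 4 without either control, 3 without CMM2 KO 1, 5 without CMM2 KO 2, and 2 without either KO library of CMM12. Over all genes, 3170 calls became 1680 without the CMM2 control and 1717 without the CMM12 control. They became 1499 without CMM2 KO 1, 3096 without CMM2 KO 2, 2120 without CMM12 KO 1 and 1690 without CMM12 KO 2. Between 12070 and 12270 genes were tested in these fits. No fit turned the direction of any of the 7. DESeq2 called the same 7, against 32.2% of all genes. On the TPM scale limma called 2004 genes higher and 934 lower over all genes, against 1792 and 1378 by edgeR on counts, and it put the median of all genes at 0.15 rather than 0.04 on the log2 scale, while 6 of the 7 HOX calls (all but HOXB9) remained.

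The proteins that work with HOX factors on DNA were read next. Of the 9 TALE cofactors (PBX, MEIS and PKNOX), 6 were tested between the lines and 0 were called by edgeR, against 25.8% of all genes. In the same fit 0 had an unadjusted p under 0.05, against 4906 of all 12270 genes. PBX3 was at 19.1 to 23.0 TPM in CMM2 and 24.5 to 36.9 in CMM12, with a log2 fold change of 0.40 (SE 0.21, adjusted p = 0.19, edgeR), and PBX2 at 18.5 to 22.3 and 17.5 to 23.1 TPM. MEIS1 and PKNOX2 were under 1 TPM in every library.

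Of the genes that hold HOX clusters on or off, the Polycomb list was called about as often as all genes. All 28 Polycomb and H3K27 genes were tested, and 4 were called higher and 4 lower in CMM12, against 25.8% of all genes called in either direction, with a median log2 fold change of 0.03 against 0.04 for all genes. JARID2, which recruits Polycomb complex 2, was at 0.80 to 0.93 TPM in CMM2 and 3.06 to 4.30 in CMM12 (log2 fold change 1.93, SE 0.28, adjusted p = 0.00387, edgeR). PCGF6, a subunit of Polycomb complex 1, was lower (log2 fold change -1.23, SE 0.20) and KDM6A, an H3K27 demethylase, higher (1.02, SE 0.23). Of 13 Trithorax and MLL genes 1 was called, against 25.8% of all genes, the H3K4 demethylase KDM5B, at 6.78 to 11.5 TPM in CMM2 and 15.4 to 28.8 in CMM12 (log2 fold change 1.10, SE 0.15, adjusted p = 0.00359, edgeR), and the list's median was 0.01.

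Of 18 listed retinoid and CDX genes 10 were tested and 2 were called, both higher in CMM12, against 25.8% of all genes called and 14.6% called higher, with a median log2 fold change of 1.51 over those tested and 0.04 over all genes. RARG, a retinoic acid receptor, was at 2.14, 3.44 and 2.50 TPM in CMM2 and 28.36, 27.46 and 37.03 in CMM12 (log2 fold change 3.46, SE 0.23, adjusted p = 3.86e-04, edgeR). No library of one line came near the other. DHRS3, a retinaldehyde reductase, had 3 counts in CMM2 and 36 in CMM12, a pooled ratio of 12.5 (95% counting interval 3.96 to 63.6). CDX1, CDX2 and CDX4, regulators of posterior HOX genes, were at 0 to 0.06 TPM.

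Single transcription factors of position also differed between the lines. Of 26 listed head and branchial arch factors 18 were tested, with 6 called higher and 2 lower in CMM12, against 14.6% and 11.2% of all genes, and a median log2 fold change of 0.71 against 0.04. Whether this list differs from other genes was not tested. MSX1, a homeobox gene of facial and limb mesenchyme, was at 18.94, 14.30 and 36.01 TPM in the CMM2 control, KO 1 and KO 2 and at 2.58, 0.24 and 0 in CMM12 (log2 fold change -5.23, SE 0.97, adjusted p = 0.0092, edgeR). EMX2, a homeobox gene of forebrain and urogenital tissue, was lower too (-4.13, SE 0.97, adjusted p = 0.0202, edgeR). DLX3 and LHX6, both of the jaw arches, had 0 counts in CMM2 and 267 and 92 counts in CMM12, so they were at least 93.0-fold and at least 32.0-fold higher there. OTX2, HAND1, HAND2, BARX1, ALX4 and LHX8 were at 0 in all 6 libraries.

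Of 25 listed limb and trunk factors 18 were tested, and edgeR called 5 higher and 0 lower in CMM12, against 25.8% of all genes in either direction. Their median log2 fold change was 1.08, against 0.04 for all genes tested. An unadjusted p under 0.05 in edgeR was found for 11 of the 18, against 4906 of all 12270 genes. FOXF1, of gut and lung mesenchyme, was at 0.09 to 0.18 TPM in CMM2 and 3.79 to 11.9 in CMM12 (log2 fold change 5.52, SE 0.58, adjusted p = 0.0015, edgeR). PRRX2 had 0 counts in CMM2 and 101 in CMM12, at least 35.2-fold more, and IRX5 and IRX3 were higher by log2 fold changes of 2.48 (SE 0.47) and 1.52 (SE 0.37). PRRX1, the limb mesenchyme factor, was at 63.2 to 97.1 TPM in all libraries, and TBX4 and TBX5, which mark hindlimb and forelimb, were at 0. As with the HOX genes, members of these lists that are absent from 1 line passed the filter through the other, so the counts describe the lists and no more.

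**Figure D4:**
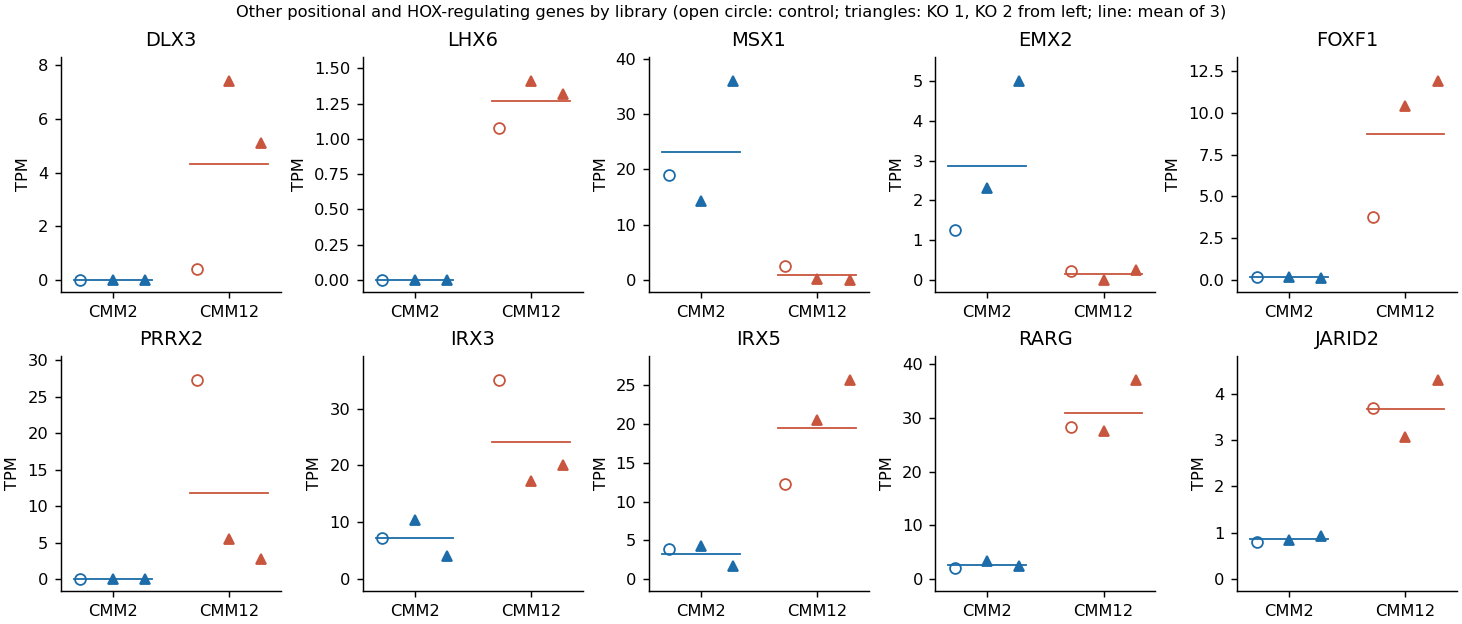
TPM in each library for 10 transcription factors of position and regulators of HOX genes that were called between the lines; open circles are controls, triangles are KO 1 and KO 2 from left to right, and lines are means of 3. DLX3, LHX6 and PRRX2 are at 0 in CMM2, MSX1 and EMX2 are near 0 in CMM12, and RARG lies at 2.14 to 3.44 TPM in CMM2 against 27.5 to 37.0 in CMM12.

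Genes that flank the clusters were read in the same way. Of 21 listed neighbours 17 were tested between the lines and 2 were called, against 25.8% of all genes, CALCOCO1 near HOXC (log2 fold change 1.28, SE 0.23, adjusted p = 0.00769, edgeR) and ATP5MC1 near HOXB (-0.61, SE 0.17, adjusted p = 0.0384, edgeR). Beside the HOXB cluster, which held the sharpest HOX difference, SNX11 and CALCOCO2 had log2 fold changes of -0.38 (SE 0.25) and -0.32 (SE 0.21), SKAP1 was at 0 in all libraries and TTLL6 at 0 to 0.31 TPM. Beside HOXA, SKAP2, CBX3, SNX10, TAX1BP1 and NFE2L3 had log2 fold changes of 0.02, 0.18, 0.53, -0.39 and 1.3, and EVX1, a homeobox gene at the posterior end, one of -1.46 (SE 0.70, adjusted p = 0.163, edgeR). Beside HOXD, LNPK, HNRNPA3, MTX2, ATF2 and NFE2L2 had log2 fold changes of -1.0, -0.49, 0.34, -0.19 and -0.07, and EVX2 was at 0, and beside HOXC, CBX5 and SMUG1 had -0.31 and -0.16.

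The second question was whether podoplanin KO moved HOX genes, with each KO library set against the control of its own line. No HOX gene was called. Across both lines edgeR called 0 of the 16 tested HOX genes and 0 had an unadjusted p under 0.05, against 0.0% of all genes called and 4.03% at that unadjusted p. DESeq2 also called 0 HOX genes in each of the 4 KO comparisons, where it called 0.0733% of all genes across lines, 0.0489% in CMM2, 0.326% in CMM12 and 0.179% for the difference, and limma on log2(TPM + 1) with a filter called 0 HOX genes. PDPN itself, with a log2 fold change of -2.36 (SE 0.28), had an adjusted p of 0.288 in this edgeR fit, so the threshold was not passed by the targeted gene either. The median log2 fold change was 0.12 for the tested HOX genes and 0.01 for all genes, and 9 of the 16 were positive. At an unadjusted p under 0.05, filtered limma on log2(TPM + 1) had 1 of 16 HOX genes across lines, against 413 of 12300 genes. On log2(TPM + 0.1) it had 3 of 16, against 416 of 12300. In CMM12 and in the difference that last fit had 2 each, against 787 and 570 of all genes.

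Within each line the model rested on 1 control, which was assumed to vary like the KO pairs. In CMM2 edgeR called 0 of the 16 HOX genes (0 at an unadjusted p under 0.05), against 0.0% of all genes called and 1.9% at that unadjusted p. In CMM12 it called 0 (0 at an unadjusted p under 0.05), against 0.00815%, or 1 gene, of all and 5.99% at that unadjusted p. The test of whether the KO difference itself differed between the lines called 0 HOX genes (0 at an unadjusted p under 0.05), against 0.0% of all genes called and 3.84% at that unadjusted p, by edgeR.

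Some members lay on 1 side of their control in all 4 KO libraries, HOXA5 and HOXC6 above it and HOXA9 and HOXB6 among those below it. The HOXC6 ratios were 2.95 and 1.40 in CMM2 and 1.69 and 1.05 in CMM12. In CMM12, HOXA9 and HOXB6 had only 2 counts each in the control. The share of all genes with such a pattern was not taken. HOXA5 was higher in 4 of 4 KO libraries than in the control of its line, with CPM ratios of 2.27 (95% counting interval 0.832 to 7.14) and 2.14 (0.759 to 6.87) in CMM2 and 2.07 (1.28 to 3.41) and 1.72 (1.03 to 2.91) in CMM12. The intervals of both CMM2 ratios, which rest on 6 counts in the control, include 1. Across the lines its log2 fold change was 1.01 (SE 0.48, adjusted p = 0.987, edgeR), so the difference was not called.

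A description by size gave few members. A gene entered when it had at least 1 TPM in the control or in both KO libraries, and was listed when both KO libraries were at least 2-fold from the control in one direction on the TPM scale. In CMM2, 1 of 12 HOX genes was listed as higher, HOXA5, against 1.1% of all symbols, and 0 of 12 as lower, against 0.464%. In CMM12, 1 of 10 was listed as lower, HOXA6, against 3.17%. HOXA6 rested on 7 control counts against 3 and 0.

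HOXD8, the member with the most counts, gave the narrowest ratios. In CMM12 both KO libraries lay below the control, from 242 counts down to 143 and 133, ratios of 0.610 (95% counting interval 0.493 to 0.754) and 0.637 (0.512 to 0.791). In CMM2 the ratios were 1.01 (0.864 to 1.18) and 1.37 (1.18 to 1.59). The log2 fold change was -0.68 (SE 0.32, adjusted p = 0.843) in CMM12 and 0.26 (SE 0.33) in CMM2, and their difference was -0.94 (SE 0.46, adjusted p = 1, edgeR). The counting intervals of both CMM12 ratios lay below 1, but the test over libraries was not passed.

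The KO libraries of CMM12 also lay to one side of the control for HOXA11 and HOXA13. HOXA11 had count ratios of 2.01 (95% counting interval 1.15 to 3.65) and 1.97 (1.10 to 3.61) in CMM12 and 0.735 and 0.988 in CMM2. HOXA13 had ratios of 0.798 and 0.527 in CMM12 and 1.35 and 1.35 in CMM2. In CMM2, HOXA9 was lower in both KO libraries, with ratios of 0.718 (0.444 to 1.15) and 0.506 (0.288 to 0.864). None of these 3 genes was called in any KO comparison by edgeR.

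**Figure D5:**
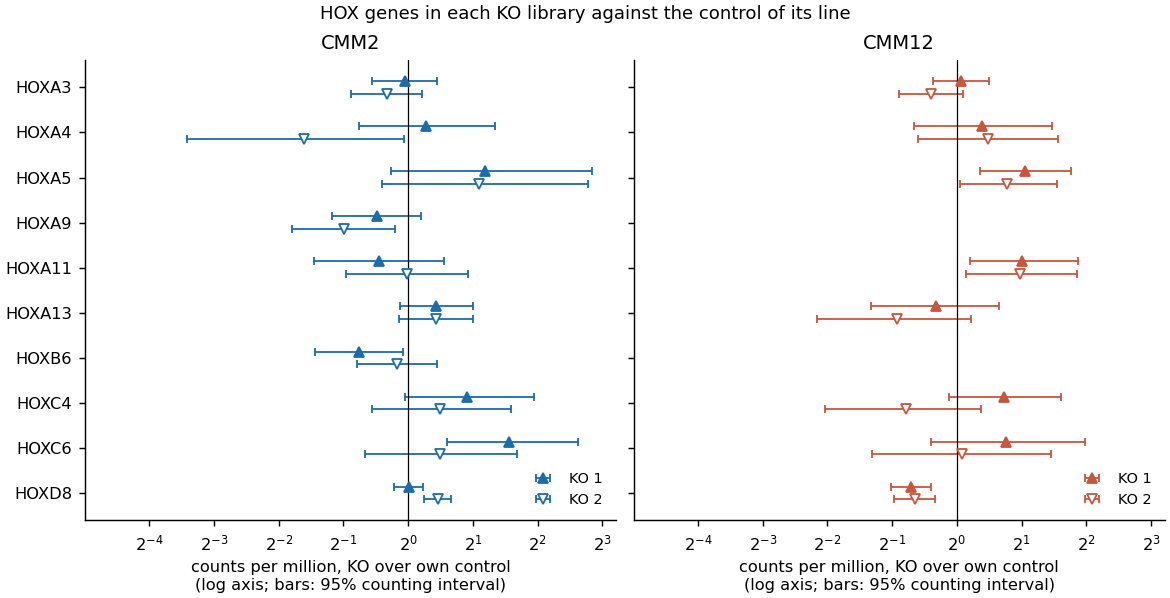
CPM ratio of each KO library over the control of its line, on a log axis, with bars for the 95% counting interval, for 10 HOX genes with enough counts (HOXA9 and HOXB6 in CMM2 only). HOXD8 has the narrowest bars and lies left of 1 in both CMM12 KO libraries, and HOXA5 and HOXC6 lie right of 1 in all 4.

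The 2 KO libraries of a cell line also differed from each other at several HOX genes, picked because their differences were large. The share of all genes that differ this much was not taken. Between the same libraries the chi-square per gene was 47.5 over 11424 genes in CMM2 and 31.8 over 12159 in CMM12, above counting error. Each KO line is 1 library, so differences of line and of library cannot be told apart. HOXB9 had 2 counts in CMM2 KO 1 and 31 in KO 2, a CPM ratio of 16.9 (95% counting interval 4.29 to 145). HOXA4 had 20 and 5 counts in the same libraries (ratio 0.272, 0.0798 to 0.747) and HOXC6 had 39 and 17 (ratio 0.475). In CMM12, HOXB3 had 1 count in KO 1 and 14 in KO 2, and HOXC4 had 32 and 10 (ratio 0.351). In all of these but HOXC6, 1 KO library lay above the control and the other below it.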

How the data were processed

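RNA of 2 canine melanoma lines was sequenced in 6 libraries. The submitters' processing notes name CanFam3.1 as the build, with STAR 2.7.3a and RSEM 1.3.3. The authors deposited unscaled expected counts of each gene, per the file headers, and TPM, which the authors scaled for gene length within each library, per the file headers. For the strand setting of the counting, the sources used here give nothing. Reads of antisense transcripts, of overlapping HOX transcripts and of similar paralogues cannot be told apart.

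Groups came from titles and genotypes. Expected counts were rounded (3.22% to 3.63% of values changed) and tested with edgeR 4.0.16 (TMM, filterByExpr on 4 groups, glmQLFTest, R 4.3.3), with line and genotype as terms, or with 4 group means for the KO effect within a line. DESeq2 1.42.0, limma 3.58.1 on log2(TPM + 1) and log2(TPM + 0.1), other filters and each library left out were alternatives. Ratios of pooled counts have exact 95% intervals, and folds against 0 use 3 counts over the line as floor. RefSeq names (UU_Cfam_GSD_1.0) matched 34 of 35 HOX symbols. Rows without a symbol, 12940, stayed in the tests.

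Members with an adjusted p under 0.05 between the lines, or at least 5 TPM in a library, are given by library. In the KO comparisons the rule named members with an unadjusted p under 0.05 or a 2-fold difference in both KO libraries, and the largest differences between libraries of a line could be added. From each other list up to 4 genes with the smallest adjusted p between lines and up to 2 in each KO comparison are named, and every tested neighbour. A few genes due under these rules are not reported here. PBX4 and MEIS3, also due under this rule, had log2 fold changes of 1.3 and 0.16. The members and lists were chosen with earlier results of these data known.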

Additional observations from a re-analysis of the deposited data

How the results depend on the processing

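Directions of the 7 HOX genes called between the lines held under every alternative run. The number of HOX genes called, 7, became 1 with limma on TPM without a filter, 4 with KO libraries only, 0 with control libraries only and 2 to 5 with 1 library left out. Over all genes, 3170 became 470, 1694, 169 and 1499 to 3096 in the same order. No HOX gene but HOXD8 had over 91 counts in a library, and the part of depth in the lost calls was not tested. HOX genes expressed in CMM2 numbered 15 rather than 9 at a level of 0.5 TPM.

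In the KO comparisons, limma without a filter called 1 HOX gene in CMM2 (HOXB7), 1 in CMM12 (HOXB2) and 2 in the difference (both), each of which rested on 1 count in a control. Over all genes, the count across lines (0) was 9 with DESeq2, 15 without the low-count filter, 3 and 2 with limma on TPM + 1 and TPM + 0.1, 11 with limma without a filter and 0 to 1 with 1 library left out. In CMM2 (0) it was 6 with DESeq2, 1 without the filter, 182 with limma without a filter and 0 to 1 with 1 library left out. In CMM12 (1) it was 40, 26, 457 and 0 to 14 in the same order, and 0 with a filter of 1 CPM and with both filtered limma fits. In the difference (0) it was 22, 2, 584 and 0 to 1.

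The numbers of the KO lines were not stated to pair the lines, and KO 2 minus KO 1 correlated at r = 0.0561 between the lines across 11417 genes, which are not independent. With the replicate block 6 HOX genes (HOXB4 lost, adjusted p = 0.064, edgeR) and 2959 of all genes were called.

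Some uncalled genes turned sign, and the cause was not tested. Not all were near 0 in the main fit. Between the lines HOXA11 was at 0.60, HOXB3 at 0.51 and HNRNPA3 at -0.49 there, and MEIS2 was at -0.49 for KO across lines. Between the lines (log2), with control libraries only, ATF2 was 0.058, CBX3 -0.24, HNRNPA3 0.035, HOXA11 -0.22, HOXA4 -0.14, HOXB3 -1.12, HOXC4 0.37, NFE2L2 0.57, PBX2 0.13 and SKAP2 -0.20. With KO libraries only, MEIS3 was -0.10. HOXC4 was 0.0041 with DESeq2, 0.0031 with median-of-ratios factors and 0.0023 with the 1 CPM filter. With limma, NFE2L2 was 0.058 in all 3 fits and PBX2 0.0003, 0.0001 and 0.0003. With 1 library left out, HOXA4 ran from -0.0595 to 0.89, HOXC4 from -0.47 to 0.39, MEIS3 from -0.096 to 0.57, NFE2L2 from -0.39 to 0.12, PBX2 from -0.26 to 0.0101, SKAP2 from -0.099 to 0.13, SMUG1 from -0.44 to 0.0525 and ATF2 from -0.48 to 0.089. For KO across lines, HOXD8 ran from -0.68 to 0.26 (without the CMM12 control) and MEIS2 from -1.12 to 0.26 (without the CMM2 control). The difference of KO effects for HOXA5 was 0.11 with limma on TPM + 1, with or without a filter.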

Other observations

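In the lists beside the HOX genes, edgeR called no gene in any KO comparison, and the following values are given as descriptions. KDM5B, the H3K4 demethylase, was higher in 4 of 4 KO libraries, at 6.78 TPM in the CMM2 control against 10.12 and 11.48, and at 15.35 in the CMM12 control against 23.32 and 28.80 (log2 fold change across lines 0.73, SE 0.17, adjusted p = 0.987, edgeR). CALCOCO1, beside the HOXC cluster, was higher in 4 of 4 as well, at 2.51 TPM against 4.24 and 4.81 in CMM2 and 5.21 against 11.90 and 13.64 in CMM12 (1.05, SE 0.25, adjusted p = 0.987, edgeR).

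Among position genes in CMM12, DLX3 was at 0.42 TPM in the control against 7.42 and 5.10 after KO, MSX1 at 2.58 against 0.24 and 0, PRRX2 at 27.29 against 5.48 and 2.76, and STRA6, the retinol uptake receptor, at 50.83 against 7.86 and 12.39. DLX3 and PRRX2 had 0 counts in CMM2, MSX1 was at 18.94 against 14.30 and 36.01 TPM there, and STRA6 at 4.72 against 13.49 and 5.29. MTF2, a Polycomb accessory protein, was lower in 4 of 4 KO libraries (log2 fold change across lines -0.73, SE 0.27, adjusted p = 0.987, edgeR). It was at 19.37 TPM in the CMM2 control against 17.84 and 11.61, and at 15.83 in the CMM12 control against 6.26 and 9.14. CMM2 KO 1 was thus close to its control. The share of all genes on 1 side of the control in 4 of 4 was not taken. Each of these comparisons rests on 1 control library per line, and none of these genes passed the test.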
